A study of Mus musculus with 2 samples.

Results

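Ccl17, Ccl22, Ccr4, Ccl1 and Ccr8 are the genes of the chemokine circuits best known for drawing regulatory T cells (Tregs) into tissue, and these 5 of the 14654 genes in the deposited count table were chosen by their symbols. All 5 had a row in that table and in the count matrices. The data are droplet single-cell RNA-seq (10x Genomics, 3' end counting) of live CD45+ cells, with some CD45- cells mixed back, from subcutaneous YUMMER1.7 tumors grown for 11 days in male C57BL/6 mice of 8 weeks. YUMMER1.7 is a mouse melanoma line. The hosts were wild type (WT) or Siah2-/-, that is, without functional alleles of the ubiquitin ligase Siah2, and the same tumor line was given to both. How many animals went into a library is not stated. Each genotype was 1 library of 4512 (WT) or 5563 (Siah2-/-) cells, so genotype, tumor suspension, library and lane cannot be told apart and no difference between genotypes has a replicate check. Levels are CPM, the UMIs of a gene per 1000000 UMIs of the cell class, and are not scaled by transcript length since 1 end of each transcript is counted, so levels are compared between classes and not between genes. Every interval below is a 95% interval for counting error only, and it does not cover the spread between animals or between cells.

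CCL17 and CCL22 are ligands of the receptor CCR4, and dendritic cells (DC) and alternatively activated macrophages are their usual sources. CCL1 is a ligand of CCR8 and is made mainly by activated T cells and mast cells. CCR4 is carried by Tregs, Th2 cells and skin-homing memory T cells, and CCR8 marks activated Tregs in tumors. Chemokine messages of this kind are produced in bursts by a small share of cells, so the number of cells behind a level matters as much as the level.

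Ccl22 (ENSMUSG00000031779, chr8:94745590-94751699 on GRCm38, plus strand) and Ccl17 (ENSMUSG00000031780, chr8:94810453-94812036, plus strand) are neighbours with 58753 bases between them, and the gene of the adhesive chemokine Cx3cl1 (chr8:94772009-94782427) lies in that gap. Ccr4 (ENSMUSG00000047898) lies at chr9:114490316-114504916 on the minus strand and Ccr8 (ENSMUSG00000042262) at chr9:120092114-120094906 on the plus strand. Ccl1 (ENSMUSG00000020702) lies at chr11:82176657-82305690 on the minus strand, a span set by a long upstream transcript model. Overlaps of the 5 with other genes were not searched for. The stretches upstream of the Ccl17 and Ccl22 start sites (RefSeq, GRCm38.p6, plus strand) are shown because these neighbours had unlike values in the same DC. They run from chr8:94810203-94810452 for Ccl17 and from chr8:94745434-94745589 for Ccl22, each ending at the base before the gene. Capitals mark the matches found by a search on both strands for TTCNNNNGAA (a STAT6-type spacing), TTCNNNGAA (other STAT factors), GGGNNNNNCC (a loose NF-kB pattern) and TATAAA.
Ccl17: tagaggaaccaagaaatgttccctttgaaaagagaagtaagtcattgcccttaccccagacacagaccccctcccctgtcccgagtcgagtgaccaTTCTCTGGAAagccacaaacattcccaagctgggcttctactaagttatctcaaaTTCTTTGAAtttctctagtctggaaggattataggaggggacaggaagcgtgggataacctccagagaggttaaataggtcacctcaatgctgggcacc
Ccl22: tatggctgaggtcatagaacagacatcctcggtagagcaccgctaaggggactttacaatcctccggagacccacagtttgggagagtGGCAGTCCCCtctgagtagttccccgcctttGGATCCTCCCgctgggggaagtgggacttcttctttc
The capitals in Ccl17 are 1 STAT6-type match, TTCTCTGGAA, and 1 STAT match, TTCTTTGAA. The capitals in Ccl22 are 2 matches to the NF-kB pattern, both on the minus strand. Over all 32851 mouse promoter windows of 300 bases, 6.95% held the STAT6-type pattern, 8.30% the other STAT pattern, 50.8% the NF-kB pattern and 13.6% TATAAA. In their 300-base windows, Ccl1 and Ccr8 held the NF-kB pattern and Ccr4 held none of the 4. These matches are letters in a window, and no binding was measured.

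The libraries held 64793053 UMIs (unique molecular identifiers, the counted transcript copies) in WT and 59090284 in Siah2-/-, with medians of 11439.5 and 8700 UMIs per cell. The lowest cell analysed had 6670 UMIs in WT and 4896 in Siah2-/-, so the filtered WT cells were the larger ones. The libraries shared 34 cell barcodes, and 34 were expected for random draws. Siah2 had 660 UMIs in the WT library (10.2 CPM, 9.42 to 11.0) and 505 UMIs in the library labelled Siah2-/- (8.55, 7.82 to 9.33). Counting the 3' end need not cover the deleted part of the gene, so these counts do not check the label, and the library is called by its label throughout. Cells were assigned to classes by UMIs of marker genes that exclude the 5 genes described here. This gave 120 DC in WT and 150 in Siah2-/-, 1634 and 1372 macrophages, and 679 and 1711 T cells, of which 81 and 102 were Tregs (T cells with a Foxp3 UMI). Mature DC (39 and 67 cells) had Ccr7 in 100% of cells in both libraries by construction, and Fscn1, the actin-bundling protein of mature DC, in 92.3% and 94.0%. Of all DC, 68.3% and 72.0% had the DC receptor Flt3, and 30.0% and 32.0% had the macrophage receptor Csf1r. Tregs had the Treg factor Ikzf2 in 96.3% and 87.3% of cells, Cd4 in 43.2% and 63.7%, Cd8a in 32.1% and 28.4%, and the macrophage gene C1qa in 37.0% and 55.9%. The part of such foreign messages in the results below was not tested.

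**Figure D1:**
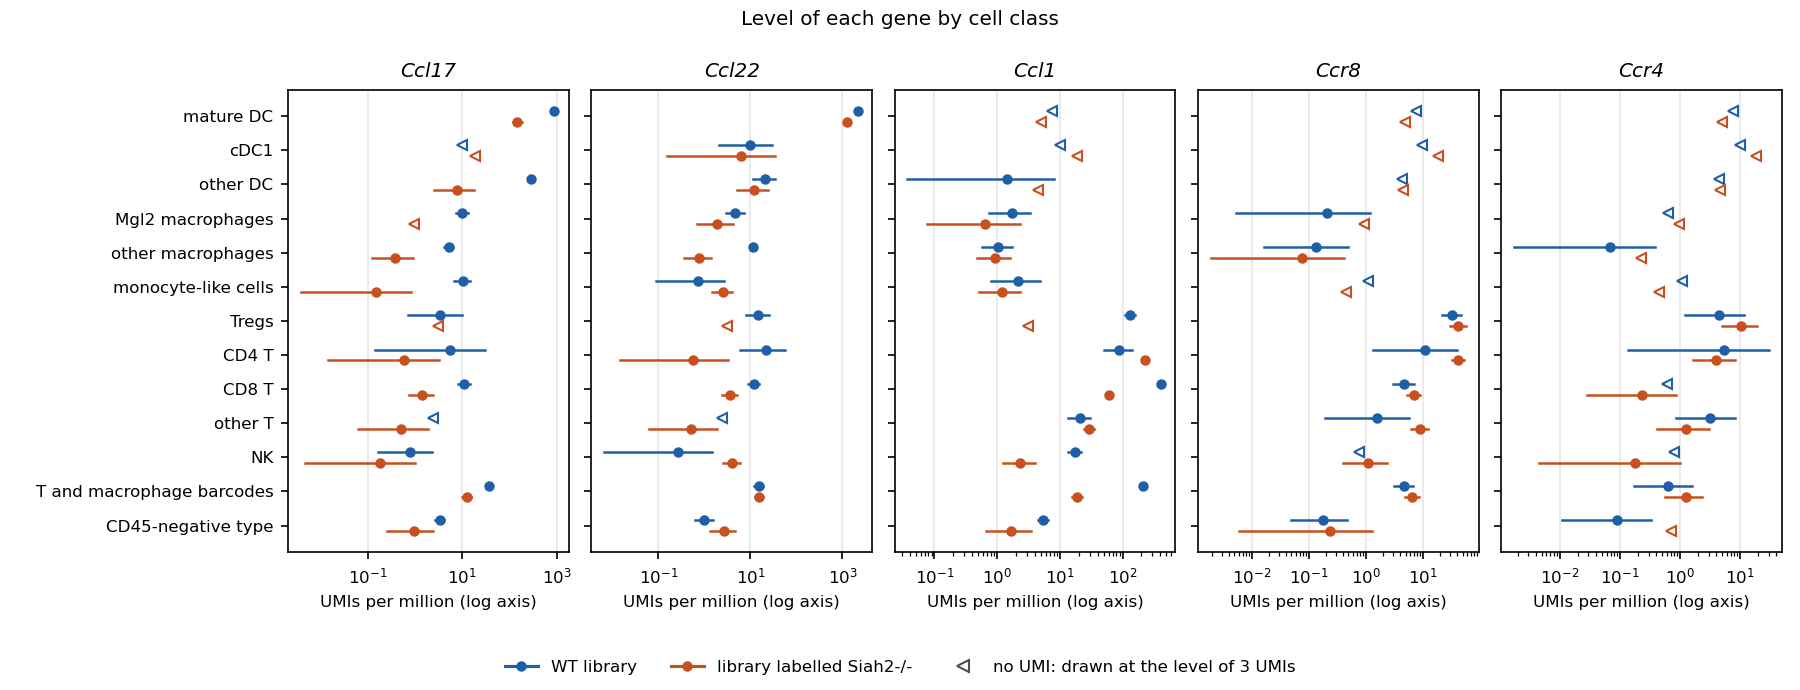
CPM of each gene (log axis) in 13 cell classes, with the WT library in blue and the library labelled Siah2-/- in orange. Bars are 95% Poisson intervals and open triangles stand for classes with no UMI, drawn at the level of 3 UMIs. Ccl17 and Ccl22 were highest in mature DC, Ccl1 in T cell classes, and Ccr8 and Ccr4 in Tregs and CD4 T cells.

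Ccl17 was a gene of DC in both libraries and was about 6 times lower in Siah2-/- DC. The 120 WT DC held 545 Ccl17 UMIs, or 392 CPM (360 to 427). The 150 Siah2-/- DC held 94 UMIs, or 66.0 CPM (53.3 to 80.7). The log2 ratio of Siah2-/- over WT was -2.57 (-2.90 to -2.25). Of 7487 genes with at least 20 UMIs in DC, 3.67% were at least 2-fold lower in Siah2-/- with an interval that excluded no change, and 5.34% were at least 2-fold higher. Ccl17 and Ccl22 were the 2 of the 5 genes that passed this minimum in DC, and Ccl17 was the 1 counted as lower.

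The share of DC with Ccl17 was lower in the Siah2-/- library by the point values. The WT cells that carried it held a median of 9 copies and the Siah2-/- cells 2. A Ccl17 UMI was found in 23 of 120 WT DC (19.2%, exact 12.6 to 27.4) and in 12 of 150 Siah2-/- DC (8.00%, 4.20 to 13.6), intervals that overlapped. After each cell was thinned to 4896 UMIs the shares were 16.7% (10.5 to 24.6) and 5.33% (2.33 to 10.2), which barely did not overlap. NK cells, which should lack the gene, gave 0.532% and 0.161%. The cells with 10 or more Ccl17 UMIs numbered 11 in WT DC and 2 in Siah2-/- DC. Few cells held most of the message in either library: 1 WT cell held 37.4% of the DC UMIs (204 UMIs) and 1 Siah2-/- cell held 64.9% (61 UMIs). Without the highest cell of each library the log2 ratio was -3.41 (-3.98 to -2.90), and without the highest 3 it was -3.88 (-4.68 to -3.17). Leaving out the 5% of cells with the highest doublet scores removed 3 DC from each library, left 337 and 93 UMIs, and gave -1.90 (-2.25 to -1.57). The WT cell with 204 UMIs was among those removed, while the Siah2-/- cell with 61 UMIs was kept.

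Within DC, Ccl17 was lower in Siah2-/- in both the mature and the remaining cells. Of 4371 genes tested in mature DC 2.68% were called lower and 4.69% higher, and of 5540 in other DC 2.82% and 5.56%. Mature DC, which have taken up migration genes such as Ccr7, held 351 UMIs in WT (877 CPM, 787 to 974) and 89 in Siah2-/- (148, 119 to 182), a log2 ratio of -2.57. With 204 of the 351 WT UMIs in 1 cell, this was -3.03 (-3.67 to -2.44) without the top cell of each library. It was -1.36 (-1.76 to -0.97) without the cells of high doublet score, which left out that WT cell and kept the top Siah2-/- cell. The same number of mature DC, 10 in each library, carried a Ccl17 UMI, which is 25.6% (13.0 to 42.1) of WT and 14.9% (7.40 to 25.7) of Siah2-/- cells, with intervals that overlapped. The other DC, which passed neither the mature nor the cDC1 gate, held 194 UMIs in WT (283 CPM, 244 to 326) and 5 in Siah2-/- (7.56, 2.45 to 17.6), a log2 ratio of -5.23 (-6.86 to -3.98). The markers of these other DC differed too, with Mgl2 in 38.7% of WT and 21.4% of Siah2-/- cells and Cd209a in 43.5% and 64.3%. The part of this make-up in the ratio was not tested. In other DC, 13 of 62 WT cells and 2 of 70 Siah2-/- cells carried Ccl17 (21.0%, 11.7 to 33.2, and 2.86%, 0.348 to 9.94). No UMI was found in cDC1, the DC specialised for cross-presentation, in 19 WT or 13 Siah2-/- cells, with exact upper limits of 12.2 and 22.9 CPM.

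The marker rules missed some of the cells with the most Ccl17. The highest cell of the WT library carried 319 UMIs, 19.9% of the library's Ccl17, together with 35 UMIs of the lectin Mgl2, but only 2 UMIs of the DC marker genes, so it was left unassigned. By clusters of the cells, made without the 5 genes, it lay in the mature DC cluster, although it had no Ccr7 or Fscn1 UMI, and it supplied 319 of the 893 WT Ccl17 UMIs of that cluster. The DC clusters held 221 WT and 243 Siah2-/- cells, and 82.2% and 75.7% of all Ccl17 UMIs of the libraries, against 34.1% and 39.3% in the marker-gated DC. In these clusters Ccl17 stood at 517 CPM in WT (489 to 545) and 71.1 in Siah2-/- (61.2 to 82.3), a log2 ratio of -2.86 (-3.09 to -2.64), and 21.7% and 8.23% of the cells carried it. The mature and other DC clusters then had ratios of -3.55 and -2.37, so the order of the subsets turned around with the definition, while each ratio stayed below 0. Barcodes with both T cell and macrophage markers held 237 Ccl17 UMIs in WT and 91 in Siah2-/-, 14.8% and 38.1% of the libraries' Ccl17. The log2 ratio was -1.56 (-1.92 to -1.20), with 175 UMIs in 1 WT barcode and 42 in 1 Siah2-/- barcode. Their Ccl22 UMIs were 97 and 111 (0.02, -0.39 to 0.43).

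**Figure D2:**
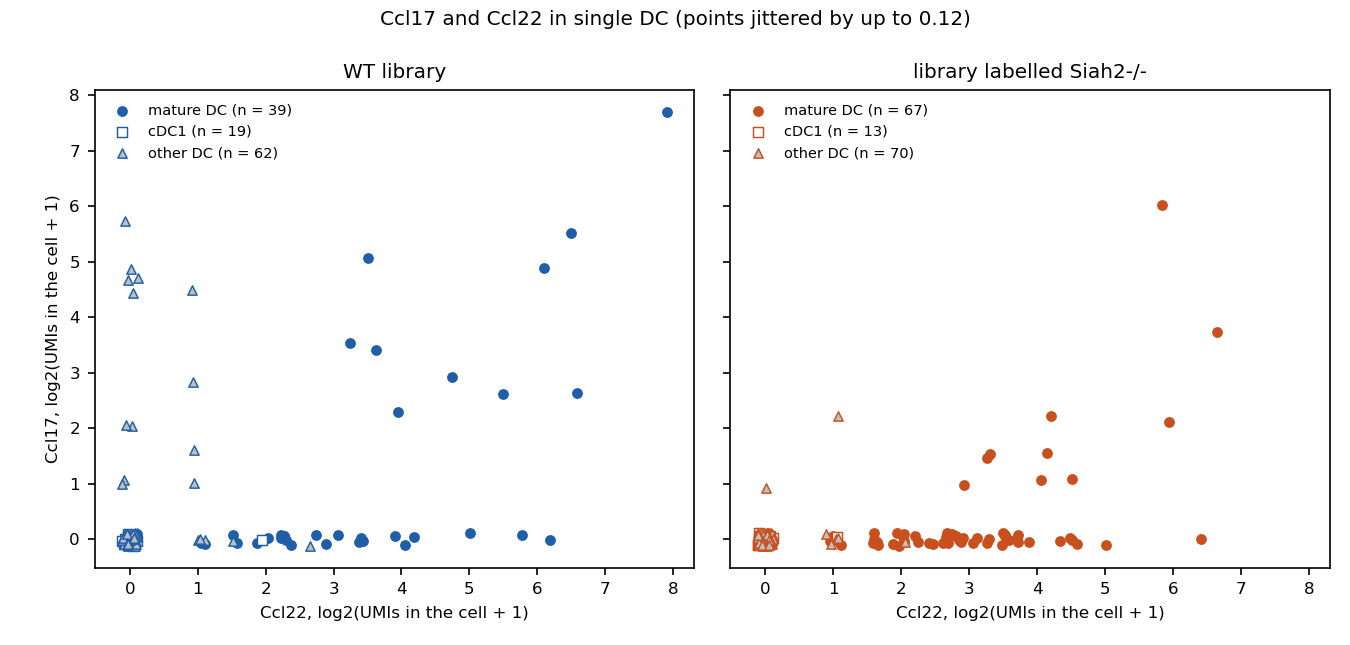
Ccl17 against Ccl22 in every marker-gated DC, as log2 of the UMIs in the cell plus 1, with mature DC as filled circles, cDC1 as open squares and other DC as grey triangles. The 13 of 62 WT other DC with Ccl17 lie along the left edge, with little or no Ccl22. Of the mature DC with Ccl17, 10 in each library, all carried Ccl22.

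Ccl22 was a gene of mature DC in both libraries and differed less between libraries than Ccl17, with intervals of the ratios that did not overlap. Mature DC held 871 UMIs in WT (2176 CPM, 2034 to 2325) and 748 in Siah2-/- (1242, 1154 to 1334), and 87.2% (34 of 39 cells) and 89.6% (60 of 67) carried it. The log2 ratio was -0.81 (-0.95 to -0.67). Over all DC the levels were 639 (598 to 682) and 531 CPM (494 to 571), a log2 ratio of -0.27 (-0.41 to -0.12), with carriers at 36.7% (28.1 to 46.0) and 44.7% (36.6 to 53.0) against 0.266% and 0.806% of NK cells. This small difference rested on few cells: it was -0.05 (-0.21 to 0.11) without the highest cell of each library, which in WT held 224 of the 888 UMIs and was the same cell that held the most gated-DC Ccl17, and 0.05 without the highest 3. It was 0.15 without the cells of high doublet score, which left out that WT cell and kept the highest Siah2-/- cell. In mature DC it was -0.63 (-0.79 to -0.47) without the highest cell and -0.55 without the highest 3.

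Every Ccl17-positive mature DC was also Ccl22-positive, in 10 of 10 cells in each library. Of the mature DC with Ccl22, 29.4% in WT and 16.7% in Siah2-/- also had Ccl17. In other DC, where Ccl22 was rarer (9 of 62 WT cells, 14.5%), 4 of the 13 WT cells with Ccl17 had a Ccl22 UMI and 9 had none. The Ccl22 level of other DC, 20.4 CPM in WT (11.2 to 34.2) and 12.1 in Siah2-/- (5.22 to 23.8), was below that of empty droplets (29.5 and 15.5). A droplet with a cell need not hold stray message at the empty-droplet level. Whether these Ccl22 UMIs were expressed by the cells was therefore not tested. In the Siah2-/- library 1 other DC among 70 had Ccl17 without Ccl22.

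**Figure D3:**
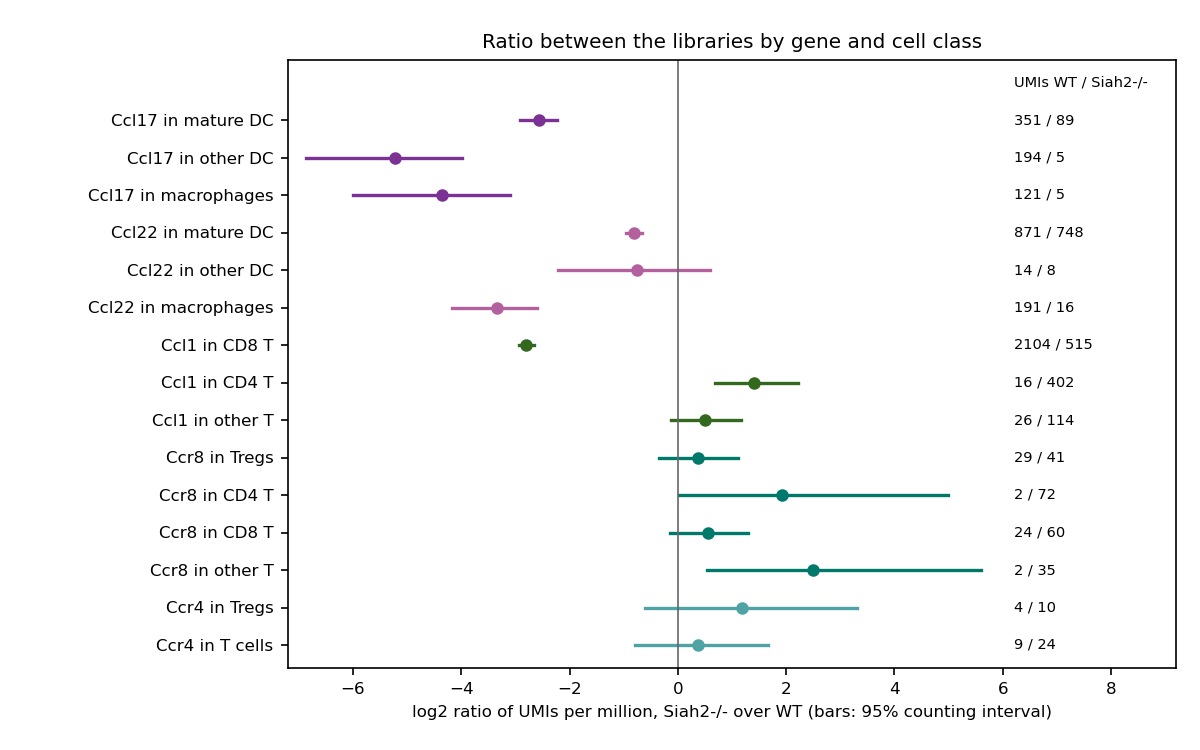
Log2 ratio of CPM, Siah2-/- over WT, for each gene in the classes that carry it, with 95% counting intervals as bars and the UMIs of both libraries at the right. Ccl17 in DC and macrophages and Ccl1 in CD8 T cells lie well to the left of 0, Ccl22 in mature DC lies just left of 0, and the intervals of Ccr4 cross 0.

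In macrophages both ligands were rare. The 1634 WT macrophages held 121 Ccl17 UMIs in 25 cells (6.28 CPM, 5.21 to 7.50) and the 1372 Siah2-/- macrophages held 5 in 3 cells (0.306, 0.0994 to 0.714), a log2 ratio of -4.36 (-6.01 to -3.10). For Ccl22 they held 191 UMIs in 33 cells (9.91 CPM, 8.55 to 11.4) and 16 in 12 cells (0.979, 0.560 to 1.59), a log2 ratio of -3.34 (-4.18 to -2.60), and 1 WT cell held 58.6% of the WT UMIs. Without the top cell of each library the ratio was -2.36, and by clusters it was -1.64 (-2.56 to -0.79) on 45 and 16 UMIs. Among 11460 genes tested in macrophages, 2.39% were called lower and 4.08% higher.

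These levels were set beside those of empty droplets. Droplets with 10 to 100 UMIs, which hold no cell, had Ccl17 at 20.1 CPM in WT (15.9 to 25.2) and 2.11 in Siah2-/- (1.05 to 3.77), and Ccl22 at 29.5 and 15.5. The macrophage levels were below these in both libraries, while the levels over all DC were above them by an order of magnitude. Ccl22 in other DC, on 14 and 8 UMIs, was also below them, and Ccl17 in Siah2-/- other DC, at 7.56 CPM on 5 UMIs, was above its empty-droplet level by less than that. Genes of other cells moved with the macrophage values. Of 16 genes of DC maturation, 5 were called lower in Siah2-/- macrophages, namely Fscn1 (478 and 78 UMIs), Ccr7 (225 and 61), the IL12 subunit Il12b (193 and 14), Il4i1 and Cacnb3. The 3 called higher were the checkpoint ligands Cd274 (800 and 1944 UMIs) and Pdcd1lg2 (176 and 437) and the costimulator Cd80 (119 and 221), and the list median was -0.18. Fscn1 is not particular to DC here, since 93.9% to 98.5% of the cells in the CD45-negative clusters had it, and cells of that type numbered 842 in WT and 176 in Siah2-/-. The part of such messages in the macrophage counts was not tested. The Mgl2 macrophages, which carry an IL4-type lectin, had 46 Ccl17 UMIs in 8 of 328 WT cells and none in 207 Siah2-/- cells. With 3 UMIs put in place of 0 the fold was 10.4, and the upper limit of the log2 ratio was -3.02. Of the 46 WT UMIs, 29 lay in 1 cell.

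Ccl17 was the chemokine ligand with the lowest ratio in DC. Of 33 CC and CXC ligands listed, 17 had at least 20 UMIs in DC. Ccl17 was the 1 called lower and 6 were called higher, with a list median log2 ratio of 0.81 against -0.01 over all genes tested, of which 3.67% were called lower and 5.34% higher. The 6 were the CXCR3 ligands Cxcl10 (159 and 658 UMIs, 2.01) and Cxcl9 (141 and 397 UMIs, 1.46), the chemokine Ccl4 (63 and 436 UMIs, 2.76), and Ccl9, Ccl2 and Cxcl2 at 1.76, 1.41 and 1.15. T cell messages moved with them: Gzmb, the granzyme of cytotoxic cells, had 31 and 180 UMIs in DC (2.50), and 2.50% of WT and 6.00% of Siah2-/- DC held a UMI of the T cell receptor gene Cd3e. The part of these in the ligand counts was not tested.

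**Figure D4:**
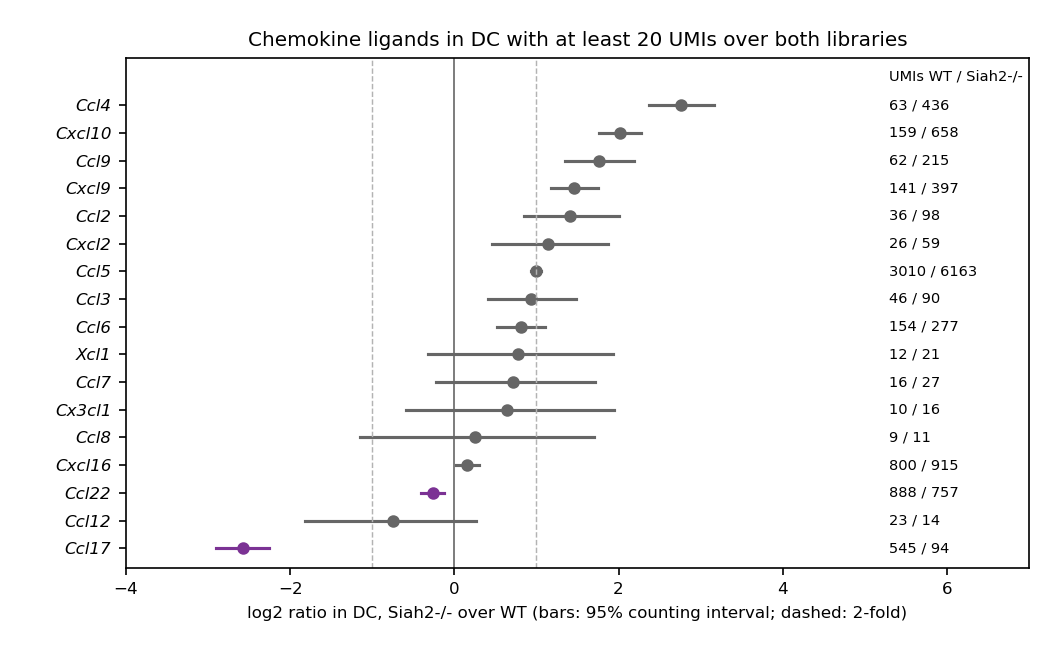
Log2 ratio in DC, Siah2-/- over WT, of the 17 chemokine ligands with at least 20 UMIs, with 95% counting intervals, and the UMIs of both libraries at the right. Ccl17 stands at the bottom, left of the 2-fold line, and 6 ligands stand at the right of the other line.

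Genes of IL4, IL13 and GM-CSF signalling, the cytokines that induce CCL17 and CCL22 in myeloid cells, were called in both directions in DC. Of 22 listed, 17 passed the minimum, 1 was called lower and 5 higher, with a median of 0.60, against 3.67% and 5.34% of all genes tested in DC. The lower gene was Mgl2 (300 and 95 UMIs, -1.69, -2.04 to -1.36), and the higher ones were Cd209a (278 and 682 UMIs, 1.26), Klf4, Chil3, Il13ra1 and Stat5b. Neither the receptor chain Il4ra (131 and 203 UMIs, 0.60) nor its transcription factor Stat6 (54 and 86 UMIs, 0.64) reached 2-fold. Of 16 genes of DC maturation, 2 were higher, Ccr7 (1422 and 3063 UMIs, 1.07) and the PD-1 ligand Cd274 (123 and 287 UMIs, 1.19), with a median of 0.64 and the same shares over all genes. Mature DC made up 39 of 120 WT and 67 of 150 Siah2-/- DC, and Ccr7 was used to assign them. Cd209a and Ccr7 were also among the marker genes that assigned DC as a whole. Chil3 was a leading gene of the monocyte-like clusters, and monocyte-like cells numbered 316 in WT and 865 in Siah2-/-. The part of such messages in the DC values was not tested.

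Ccl1 was a gene of T cells. In the WT library it was highest in CD8 T cells, the cytotoxic lineage, at 2104 UMIs in 451 cells (419 CPM, 401 to 437), and in the Siah2-/- library it was highest in CD4 T cells without Foxp3, at 402 UMIs in 255 cells (231 CPM, 209 to 254). By clusters and with all barcodes of at least 1000 UMIs, CD4 T cells led in WT as well. In CD8 T cells the Siah2-/- library held 515 UMIs in 866 cells (60.2 CPM, 55.1 to 65.7), a log2 ratio of -2.80 (-2.94 to -2.66). Of these gated cells, 63 of the 451 in WT and 215 of the 866 in Siah2-/- lay in the cluster named other T. In the CD8 T clusters the ratio was -2.41 (-2.56 to -2.27). A Ccl1 UMI was seen in 25.9% of WT CD8 T cells (21.96 to 30.2) and 6.93% of Siah2-/- ones (5.33 to 8.83), or 19.5% and 4.73% after thinning. NK cells gave 2.39% and 0.806%, and DC, which should lack it, gave 1 UMI in 120 WT cells and none in 150 Siah2-/- cells. Among the 10222 genes tested in CD8 T cells, 1.93% were called lower and 3.88% higher.

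The Ccl1 message was unevenly shared among CD8 T cells too. In WT, 10 of the 451 cells held the upper 52.9% of the UMIs, and 40 cells carried 10 or more. In Siah2-/-, 5 of the 866 cells held 60.2% of the UMIs, and 10 carried 10 or more. Without the highest 3 cells of each library the ratio was -3.42. Over all T cells Ccl1 stood at 308 (295 to 321) and 67.9 CPM (63.8 to 72.2), a log2 ratio of -2.18 (-2.29 to -2.07), in a class where 2.54% of 11002 genes were called lower and 3.95% higher. Ccl17 and Ccl22 were called lower in T cells as well, on 59 and 15 UMIs and on 76 and 34 UMIs, and 1 WT cell held 39 of the 59 Ccl17 UMIs. Both T cell levels were below those of empty droplets.

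CD4 T cells without Foxp3 went the other way by the marker rules, from 16 UMIs in 20 WT cells (87.3 CPM, 49.9 to 142) to the 402 UMIs above, a log2 ratio of 1.40 (0.69 to 2.22), with 4.23% of 6673 genes called lower and 3.24% higher. This direction did not hold: it was -2.79 in the CD4 T clusters (425 UMIs in 25 WT cells and 498 in 283 Siah2-/- cells) and -1.82 once all barcodes of 1000 or more UMIs entered, when 270 WT and 623 Siah2-/- barcodes passed the same rule. With 20 WT cells, of which 2 had Ccl1, the WT class was small. WT Tregs held 118 Ccl1 UMIs in 5 of 81 cells, 89 of them in 1 cell, and 102 Siah2-/- Tregs held none, at least 43.1-fold lower by a floor of 3 UMIs, with an upper limit of the log2 ratio of -5.11.

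Barcodes with both T cell and macrophage markers, which were kept apart from the T cells, held 1393 Ccl1 UMIs in WT and 138 in Siah2-/- (216 and 18.9 CPM, log2 ratio -3.51, -3.77 to -3.26), and 1 WT barcode held 474 of them. Empty droplets held Ccl1 at 87.6 CPM in WT and 33.5 in Siah2-/-, below the CD8 T levels. The DC, macrophage and NK levels were below that of empty droplets in both libraries, and so were the WT CD4 T and both other T levels. The Siah2-/- level of the barcodes with both markers, 18.9 CPM, was below it as well, and Siah2-/- Tregs held no UMI.

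Ccr8, the CCL1 receptor, was highest in Tregs in both libraries by the point values, though in Siah2-/- CD4 T cells without Foxp3 led under several alternatives, such as without the top cell of each class. The 81 WT Tregs held 29 UMIs in 16 cells (32.7 CPM, 21.9 to 47.0) and the 102 Siah2-/- Tregs held 41 in 27 cells (42.2, 30.3 to 57.2). The interval of the log2 ratio, 0.37 (-0.35 to 1.11), included 0, while in thinned cells, on 9 and 28 UMIs, the ratio was 1.30 (0.18 to 2.57). Carriers were 19.8% (11.7 to 30.1) and 26.5% (18.2 to 36.1), and 9.88% (4.36 to 18.5) and 21.6% (14.0 to 30.8) after thinning, against 0 of 376 and 6 of 620 NK cells. In Siah2-/- the CD4 T cells without Foxp3 reached the same level, 72 UMIs in 255 cells (41.3 CPM, 32.3 to 52.1), which did not differ from that of Tregs beyond counting error. In WT they had 2 UMIs in 20 cells (10.9, 1.32 to 39.4).

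Lower levels of Ccr8 were found in CD8 T cells, at 24 and 60 UMIs (4.78 and 7.02 CPM, log2 ratio 0.55, -0.15 to 1.30). By clusters the ratio was 0.81 (0.12 to 1.55), an interval that excluded 0. Empty droplets had Ccr8 at 2.09 CPM in WT (0.903 to 4.12) and 3.83 in Siah2-/- (2.34 to 5.92). These overlapped the CD8 T intervals of 3.06 to 7.11 in WT and 5.35 to 9.03 in Siah2-/-. Over all T cells Ccr8 stood at 7.75 (5.87 to 10.0) and 13.7 CPM (11.9 to 15.7), a log2 ratio of 0.82 (0.39 to 1.27). Class sizes differed too, since CD4 T cells without Foxp3 were 20 of 679 WT and 255 of 1711 Siah2-/- T cells. No Ccr8 UMI was found in DC. Unlike the ligands, the receptor was spread thinly: no cell carried more than 5 UMIs. Cells with both Ccl1 and its receptor numbered 11 of 679 T cells in WT and 23 of 1711 in Siah2-/-, and 9 and 12 of these were CD8 T cells.

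Ccr4, the receptor of CCL17 and CCL22, was near the limit of detection: 16 UMIs in all WT cells and 34 in all Siah2-/- cells, a log2 ratio of 1.22 (0.32 to 2.18). This did not hold with smaller barcodes: with all barcodes of at least 1000 UMIs it was 0.06 (-0.37 to 0.49), and at the lower shared minimum of 4896 UMIs 0.69 (-0.08 to 1.47). In T cells the ratio turned from 0.37 (-0.79 to 1.66) to -0.64 (-1.11 to -0.16) with all barcodes of at least 1000 UMIs. Over all analysed cells the median gene stood at -0.11, with 13.5% of 14200 genes called lower and 5.95% higher. Tregs held 4 UMIs in 2 WT cells (4.51 CPM, 1.23 to 11.6) and 10 in 8 Siah2-/- cells (10.3, 4.94 to 18.9), a log2 ratio of 1.19 (-0.60 to 3.32). CD4 T cells without Foxp3 held 1 and 7 UMIs, CD8 T cells 0 and 2, and DC none. In WT the intervals of Tregs, CD4 T and other T cells all overlapped. In Siah2-/- those of Tregs and CD4 T cells overlapped, while other T cells (1.28 CPM, 0.414 to 2.98) were below Tregs. Cells with both Ccr4 and Ccr8 were 0 of 81 WT Tregs and 2 of 102 Siah2-/- Tregs.

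The UMI minimum left out most barcodes that met the Treg rule in both libraries, and more of them in WT. Among barcodes of 1000 or more UMIs, 464 in WT and 266 in Siah2-/- met the Treg rule, against 81 and 102 among the cells analysed. In this wider set Ccr4 had 37 UMIs in 30 WT barcodes and 26 in 23 Siah2-/- barcodes (17.6 and 16.5 CPM), and the log2 ratio was -0.09 (-0.87 to 0.67). Ccr8 had 64 and 71 UMIs in 47 and 50 barcodes (30.4 and 45.2 CPM), with a log2 ratio of 0.57 (0.06 to 1.08). At 1 shared minimum of 6670 UMIs it was 0.09 (-0.72 to 0.90). Tregs were 16.8% (15.4 to 18.2) of T cells in WT and 8.01% (7.11 to 8.99) in Siah2-/- in the wider set, and 11.9% and 5.96% among the cells analysed. Of all cells analysed they were 1.80% (1.43 to 2.23) and 1.83% (1.497 to 2.22), and of all barcodes in the wider set 4.61% and 2.79%, shares that the CD45 sort, the UMI minimum and the Foxp3 gate can set.

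**Figure D5:**
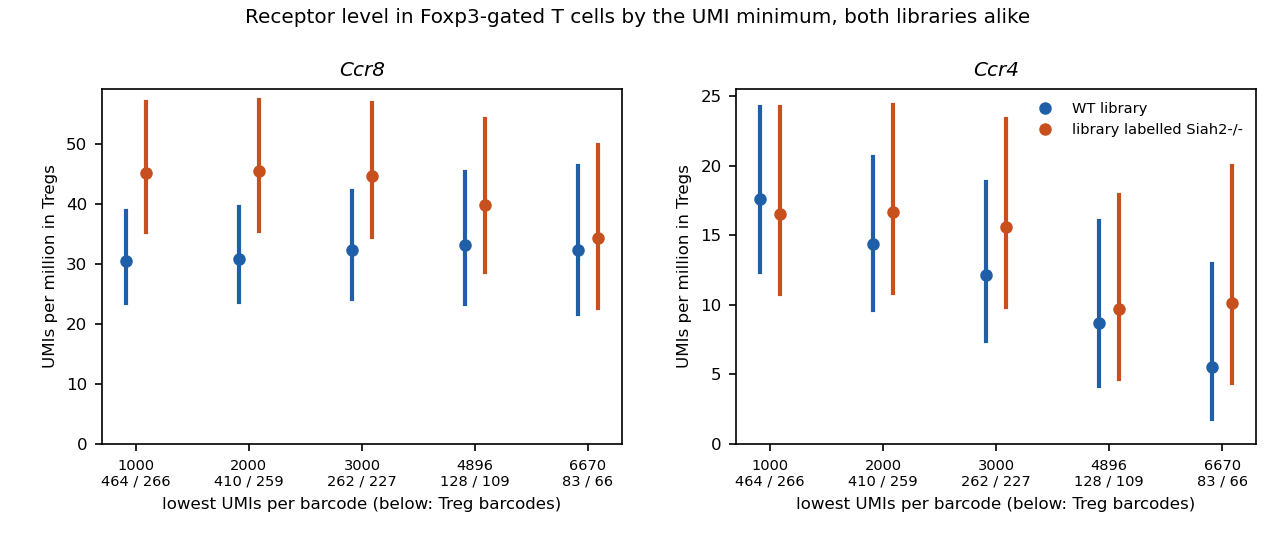
Ccr8 and Ccr4 in Foxp3-gated T cells, in CPM (linear axis), by the lowest UMI count per barcode that was admitted alike in both libraries, with 95% Poisson intervals and the number of Treg barcodes (WT / Siah2-/-) under each minimum. Ccr8 stood between 30.4 and 45.5 at every minimum, and the Ccr4 level was lower at high minimums in both libraries.

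Of 22 chemokine receptors listed, 9 had at least 20 UMIs in Tregs, and 1 was called higher, the CXCL16 receptor Cxcr6 (113 and 330 UMIs, 1.41, 1.10 to 1.74), against 3.33% of 6782 genes called higher and 3.48% called lower in Tregs. The list median was 0.36 against -0.04 over all genes. Of 16 genes of Tregs, 14 were tested and 1 was called higher, the suppressive cytokine Il10 (36 and 204 UMIs, 2.37), with a list median of 0.49.

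The genes most alike to each of the 5 over 26 sums (13 classes in 2 libraries), by Pearson r of log2(CPM + 10), are given as a description, since the sums share libraries, depth and the gates. For Ccl22 they were the IL12 subunit Il12b (0.97), the class II gene H2-Eb2 (0.96) and the amino acid oxidase Il4i1 (0.96), and Il4i1 was used in the mature DC gate. For Ccl17 they were Sh3d21 (0.86), Timd4 (0.85) and Ccl22 itself (0.84). For Ccr8 they were Sdcbp2 (0.96), Podnl1 (0.96) and the phosphatase Dusp4 (0.96), for Ccr4 Igsf23, Nebl and Rln3 (0.94, 0.93 and 0.92) on 50 UMIs, and for Ccl1 Slc17a6, Hist1h2bm and D630039A03Rik (0.90, 0.86 and 0.85). The receptors Ccr4 and Ccr8 had r = 0.86 with each other. Between ligand and receptor, r was 0.57 for Ccl1 with Ccr8, -0.22 for Ccl17 with Ccr4 and -0.16 for Ccl22 with Ccr4.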

How the data were processed

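The data are single-cell 3' RNA-seq of tumor-infiltrating cells, 1 library per genotype. Per the labels and the study's methods, the authors used bcl2fastq and Cell Ranger on mm10/GRCm38 (without stated versions) and deposited UMI counts per barcode and gene. They also deposited natural log values per cell (scaled by the cell's total), whose column names alone were used, as the list of cells kept by the authors' filter. UMI counts were summed over cells of a class, assigned by marker UMIs (for example, at least 4 Cd3 UMIs for T cells), and given as CPM (per 1000000 UMIs of the class) with exact Poisson intervals. Ratios had exact conditional intervals and shares exact Clopper-Pearson intervals, all at 95%. They cover counting error only, and no test between genotypes was possible. A gene was called at 2-fold or more with an interval that excluded 1, given at least 20 UMIs. The calls were tried on simulated Poisson counts with known changes. Those counts had no clumping of UMIs in single cells, so the rate of false calls in these data was not tested. Clusters came from Seurat 5.3.0 (CCA, R 4.3.3), and doublet scores from Scrublet in scanpy 1.11.5, which called 0.244% and 0.018% of cells, too few to have worked, so doublets were left in. Python was 3.11.15.

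The 5 genes and the lists were chosen with earlier results of these data known. Gate thresholds were set after marker counts were seen, without the 5 genes. From each list, every gene past the fold in DC, macrophages or Tregs was counted, and up to 8 with the most UMIs could be named; for each of the 5 genes, the 3 most alike of those with at least 100 UMIs were named. Il4ra, Stat6 and the likeness of gene pairs were named after their values were seen. The ratio of CD45- cells mixed in is stated differently within the submitters' texts and is not given. Alternatives were other UMI minimums, stricter gates, clusters, thinning, the mean of single-cell CPM, leaving out top cells and cells of high doublet score, and for gene counts another fold and UMI minimum.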

Additional observations from a re-analysis of the deposited data

Results flagged for a closer look

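Ccl1 differed between libraries in opposite directions in T cell classes that share both libraries: the log2 ratio of Siah2-/- over WT was -2.80 in CD8 T cells and 1.40 in CD4 T cells without Foxp3. This difference was not tested, since each genotype had 1 library, and the CD4 T direction turned with the definition of the class.

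Barcodes of 1000 or more UMIs that the authors' filter left out carried the 5 genes. Their levels were above those of empty droplets except for Ccl1 in Siah2-/- CD8 T barcodes, and Ccl17 in Siah2-/- DC barcodes rested on 1 UMI. Ccl17 stood at 319 CPM (273 to 371) in 99 excluded WT DC barcodes, and the 14 excluded Siah2-/- DC barcodes held 1 UMI (15.3 CPM, 0.389 to 85.5). Ccl22 stood at 749 CPM in WT and 292 CPM in Siah2-/- DC barcodes of this kind. Ccl1 stood at 196 CPM (181 to 212) in 685 excluded WT CD8 T barcodes, while 297 Siah2-/- ones held 2 UMIs. In excluded Treg barcodes, 383 in WT and 164 in Siah2-/-, Ccr4 stood at 27.1 and 26.7 CPM and Ccr8 at 28.8 and 49.99 CPM.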

How the results depend on the processing

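Of 64 alternative values for the 6 main ratios (Ccl17 and Ccl22 in DC, Ccl17 in macrophages, Ccr4 and Ccr8 in Tregs, Ccl1 in T cells), 7 moved, 2 reversed and 55 counted as unchanged. The Ccr4 interval includes 0, so its values count as unchanged although they ran from -0.09 (all barcodes of at least 1000 UMIs) to 2.85 (without the top cell). Of 162 values for 15 other ratios, 40 moved and 2 reversed. The reported leading class led all 10 orders of classes (5 genes in 2 libraries) as reported, 7 with all barcodes of at least 1000 UMIs, and 8 to 10 under the other alternatives, with Ccl17 and Ccl22 led by mature DC in each. The Ccl17 ratio in DC was -3.41 without the top cell of each library, -1.90 without the 5% of cells with the highest doublet scores and -3.88 without the top 3 cells (an alternative chosen after seeing the data, as was the lower shared UMI minimum). The Ccl22 ratio in DC was -0.41 in thinned cells, -0.051 without the top cell, and turned to 0.15 without high doublet scores and 0.048 without the top 3 cells. Leaving out high doublet scores removed the WT DC with the most Ccl17 and Ccl22 and kept the top Siah2-/- DC of each gene. Ccr8 in Tregs was 1.30 (0.18 to 2.57) in thinned cells, and Ccl1 in T cells was -2.05 at the lower shared UMI minimum. Ccl1 in CD4 T cells turned to -1.82 with all barcodes of at least 1000 UMIs and to -2.79 by clusters. The share of WT CD8 T cells with Ccl1 was 16.9% with those barcodes and 19.5% after thinning, and that of Siah2-/- cells was 8.96% by clusters and 4.73% after thinning. The share of WT Tregs with Ccr8 was 10.1% with those barcodes and 9.88% after thinning, and that with Ccr4 was 0 without the top 3 cells. At a fold of 1.5 the genes called lower and higher numbered 523 and 746 in DC, 695 and 855 in macrophages, 799 and 925 in T cells and 549 and 401 in Tregs, and with at least 50 UMIs they numbered 131 and 249 in DC and 103 and 133 in Tregs. Where no construction of the alternative shows it, the cause was not tested. Ccl17 in macrophages without the top 3 cells could not be given, as no Siah2-/- UMI was left. No paired analysis was possible because each genotype had 1 library. Depth limited Ccr4 most, with 50 UMIs in all cells of both libraries.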

Other observations

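Of 14 chemokine ligands tested in Tregs, 5 were called higher in the library labelled Siah2-/- and 3 lower, with a median log2 ratio of 0.02, against 3.33% and 3.48% of all genes. The lower ones were Ccl1, Cxcl16 (30 and 13 UMIs, -1.34) and Cxcl9 (18 and 7 UMIs, -1.49), and the higher ones were Ccl2, Cxcl2, Ccl3, Ccl4 and Ccl5: Ccl5 had 540 UMIs in 81 WT Tregs and 1489 in 102 Siah2-/- Tregs (log2 ratio 1.33, 1.19 to 1.48), Ccl4 had 669 and 1497 (1.03), and Ccl3 had 136 and 509 (1.77). Of 15 genes of IL4, IL13 and GM-CSF signalling tested in Tregs, 3 were called lower and 2 higher, with a median of -0.01: the cytokine Il13 (0 and 75 UMIs) and Chil3 (7 and 44) were higher, and Mgl2 (30 and 4), Cd209a (26 and 0) and Csf2rb (17 and 7) were lower. Several of these, such as Chil3, Mgl2, Cd209a, Ccl2, Cxcl2 and Cxcl9, are known as myeloid genes, and the macrophage gene C1qa was found in 37.0% of WT and 55.9% of Siah2-/- Tregs. The part of such messages in these values was not tested.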
